A study of Mus musculus with 30 samples.

Results

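Sp110, Sp100 and Pml, 3 genes whose products belong to nuclear bodies, were followed across interferon treatments and IRF1 and IRF2 mutants of a mouse dendritic cell line. They were taken by gene symbol, and all 3 were found among the 31427 symbols of the deposited expression table. The table covers 30 RNA sequencing libraries of DC3.2, labelled as a line of dendritic cells. A set of 24 libraries makes up 12 groups with 2 replicates each, and a group has 1 genotype (WT, IRF1KO, IRF2KO or the IRF1/IRF2 double mutant, DKO) and 1 treatment: 2 h with IFNα at 5000 U/mL, 2 h with IFNγ at 2 ng/mL, or media alone. The remaining 6 libraries have no replicate: WT and IRF2KO were each sampled untreated (0 h), with IFNα (2 h) and with LPS (2 h, dose not given). All libraries carry the cell line label DC3.2, but the name in the titles is DC32R for the replicated set and Dc3.2 for the single set, and no label explains the difference. Titles of the replicated libraries read nosg for WT and IRF1sg and IRF2sg for the single mutants, so WT was not labelled as carrying a control for the targeting, and no label says how many clones a mutant line stands for. Levels are given in TPM, a relative transcript abundance that scales for transcript length and for the size of the library.

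PML bodies are small spherical structures in the nucleus. The PML protein, a member of the TRIM family, builds their shell and, once joined to the small modifier SUMO, draws in client proteins. SP100 is a constant resident of these bodies and, like PML, restricts the replication of several DNA viruses. SP110 belongs to the same speckled protein family as SP100 and SP140, whose members carry chromatin reader domains, and variation at the mouse locus that holds Sp110 and Sp140 is known for its effect on resistance to tuberculosis. Interferons raise the transcription of all of these genes in many cell types. IFNα is a type I and IFNγ the type II interferon, and they signal through different receptors. IRF1 is classically described as an activator of interferon-responsive promoters and IRF2 as an antagonist that binds the same sites.

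In the GRCm38 genome with the GENCODE vM21 annotation, Sp110 lies on chr1:85576899-85598817 on the minus strand and Sp100 on chr1:85649988-85709998 on the plus strand. Sp140 lies between them on the plus strand (chr1:85600378-85645037), 1560 bases from the start of Sp110 and 4950 bases before Sp100. Pml lies apart on chr9:58218076-58249786, on the minus strand. RefSeq start site windows (GRCm38.p6, 250 bases before to 50 after a start) were matched for 3 of the 3 genes, 5 windows in all. The sequences around their starts are shown because IRF proteins bind repeats of GAAA. The first pair of lines gives 30 bases each of Sp110 (chr1:85598781-85598810, the first 30 bases from 1 of its 2 RefSeq starts) and Sp100 (chr1:85649932-85649961, upstream of both of its RefSeq starts), read 5′ to 3′ on the strand of the gene. In capitals is a run that holds GAAANNNGAAA on the other strand and 2 overlapping copies of the IRF core AANNGAAA.
Sp110: tgagatcacTTTCATTTTTCTTTTcttgaa
Sp100: gagaattacTTTCGTTTTTCTTTTccccat
Counted from these starts, the run begins at position -47 in Sp100 and at position 10 in Sp110. RefSeq gives each of these genes another start. From that of Sp100 the run lies at position -73. The other start of Sp110 (base 85603891) lies inside the span of Sp140 given above, and its window holds none of the motifs searched. Pml has 1 match to AANNGAAA, on the other strand, beginning at position -74, and none to GAAANNNGAAA. The 250 bases before the starts of Sp100 (chr1:85649738-85649987) and Pml (chr9:58249787-58250036) are given 5′ to 3′ on the strand of the gene, with the same matches in capitals.
Sp100: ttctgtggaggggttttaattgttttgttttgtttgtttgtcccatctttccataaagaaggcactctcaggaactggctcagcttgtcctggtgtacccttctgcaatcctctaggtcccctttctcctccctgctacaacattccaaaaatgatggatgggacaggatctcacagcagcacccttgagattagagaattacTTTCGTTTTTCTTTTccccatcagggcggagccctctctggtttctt
Pml: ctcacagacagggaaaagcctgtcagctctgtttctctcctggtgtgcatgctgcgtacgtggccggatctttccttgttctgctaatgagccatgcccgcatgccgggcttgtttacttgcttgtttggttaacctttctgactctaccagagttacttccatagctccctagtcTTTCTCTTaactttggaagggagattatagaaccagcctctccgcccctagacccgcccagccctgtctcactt
Of 32851 such windows of mouse genes, 23.9% hold AANNGAAA on either strand and 2.75% hold GAAANNNGAAA, a spacing that was chosen after these sequences were seen. The 2-base spacing GAAANNGAAA stands in 3.44% of the windows and in no window of the 3 genes. TTCNNNGAA, also searched, stands in 8.3% of the windows and in none of these genes. The window at the RefSeq start of Sp140 (base 85600703) holds none of the motifs searched. These matches are letters in a window and no measure of binding.

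The 24 replicated libraries held 10911 to 11101 genes at 1 TPM or more, and the single libraries 9971 to 10186. Transcripts of the targeted genes were still counted in the mutants. Irf1 in media was at 19.7 and 22.52 TPM in WT and at 30.64 and 23.57 TPM in IRF1KO, and Irf2 at 23.43 and 25.16 TPM in WT and at 18.19 and 17.35 TPM in IRF2KO, so that these values do not check the labels. The summed level of 11 dendritic markers was 4283 to 6214 TPM over the replicated libraries, with 8 of the 11 at a mean of 1 TPM or more. Most of this sum was Cd74 (3623 to 5097 TPM), so the sums do not rank the cell types. Itgax was at 31.6 to 71.29 TPM and Zbtb46 at 0.37 to 2.35 TPM. Flt3 was at 0 in all replicated libraries, and Xcr1 and Clec9a did not exceed 0.26 TPM. The 7 macrophage and monocyte markers summed to 2586 to 3609 TPM (6 of 7 at a mean of 1 TPM or more, with Lyz2 at 1119 to 1906 TPM), the 8 lymphocyte markers to at most 0.46 TPM and the 6 fibroblast markers to at most 0.26 TPM.

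Of the 3 genes, Sp110 had the most differences between genotypes that passed the test (called, an adjusted p under 0.05). It was lowest in DKO under every treatment, and rose with IFNα in WT, IRF2KO and DKO. In media it stood at 13.81 and 12.81 TPM in WT, 11.29 and 8.96 TPM in IRF1KO, 7.16 and 6.09 TPM in IRF2KO, and 1.73 and 1.91 TPM in DKO. The 4 genotypes did not overlap, and DKO was far below the rest. After IFNα the libraries read 27.5 and 25.63 TPM in WT, 14.63 and 16.68 TPM in IRF1KO, 18.35 and 18.31 TPM in IRF2KO, and 4.52 and 6.15 TPM in DKO. Every IFNα library lay above both media libraries of its genotype, but the DKO libraries with IFNα remained below all WT and IRF1KO media libraries. After IFNγ the values were 21.73 and 20.36 TPM in WT, 10.22 and 11.2 TPM in IRF1KO, 14.82 and 11.33 TPM in IRF2KO, and 3.01 and 3.11 TPM in DKO. In the order of the 12 group means, from WT with IFNα (26.56 ± 1.32 TPM, SD, n = 2) to DKO in media (1.82 ± 0.13 TPM), 3 pairs of neighbours overlapped: WT media with IRF2KO IFNγ, IRF1KO IFNγ with IRF1KO media, and IRF2KO media with DKO IFNα. In bulk RNA, fewer cells with a transcript and less of it per cell cannot be told apart.

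**Figure D1:**
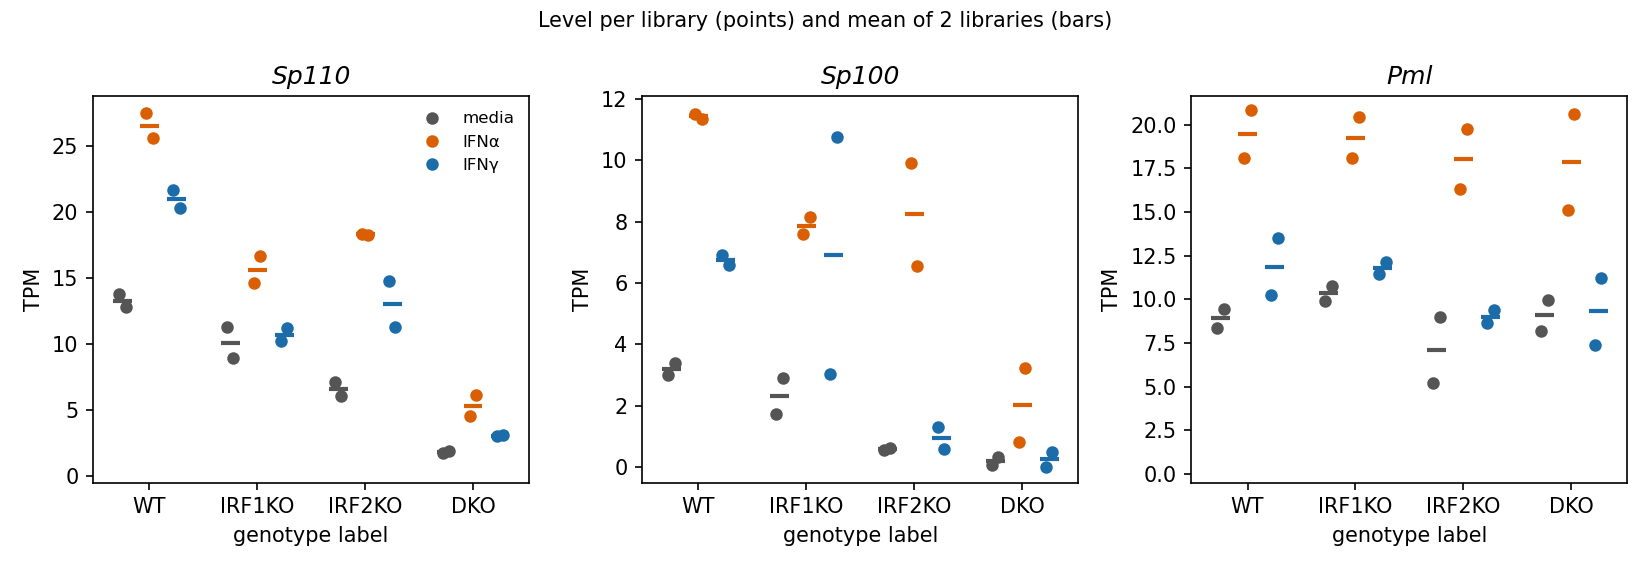
TPM of Sp110, Sp100 and Pml (vertical axes, linear and separate for each gene) in each of the 24 replicated libraries, by genotype, with media in grey, IFNα in orange and IFNγ in blue; points are libraries and bars the means of 2. Sp110 and Sp100 were lowest in DKO (Sp110 at 1.73 and 1.91 TPM in media), while the Pml libraries with IFNα lay between 15.11 and 20.83 TPM in all 4 genotypes.

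Differences were tested with limma on log2(TPM + 1) over 11842 genes, and a gene was called at a Benjamini-Hochberg adjusted p under 0.05. On this scale the change of a gene at low level is understated. The rise of Sp110 with IFNα was 0.95 ± 0.16 (log2, SE) in WT, a ratio of mean TPM of 2.00 (limma adjusted p = 0.00256). It was 1.35 ± 0.16 in IRF2KO (ratio 2.77, adjusted p = 4.38e-05) and 1.16 ± 0.16 in DKO (ratio 2.93, adjusted p = 0.000323). In IRF1KO the difference was 0.59 with a 95% interval of 0.26 to 0.92, and it was not called (adjusted p = 0.164). Among all tested genes, 1.04% were called for IFNα in WT, 0.819% in IRF1KO, 1.39% in IRF2KO and 1.01% in DKO. The WT call was lost without WT media replicate 2 (0.90, adjusted p = 0.0537).

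With IFNγ, Sp110 passed the threshold in IRF2KO, at 0.88 ± 0.16 (adjusted p = 0.00596). That call was lost without IRF2KO IFNγ replicate 1 (0.70, adjusted p = 0.175) and without IRF2KO media replicate 2 (0.78, adjusted p = 0.108). In WT the difference of 0.62 had an adjusted p of 0.0726, and of 0.0478 with the replicate block. The values were 0.53 in DKO (adjusted p = 0.238) and 0.08 in IRF1KO, whose IFNγ and media libraries overlapped. The shares called among all genes for IFNγ were 1.26% in WT (149 genes, and 229 with the replicate block), 1.16% in IRF1KO, 1.13% in IRF2KO and 0.777% in DKO. IFNγ minus IFNα for Sp110 ran from -0.63 in DKO to -0.32 in WT, with all IFNγ libraries below all IFNα libraries of their genotype. None of these 4 differences was called (0.768%, 0.946%, 0.819% and 0.904% of all genes in WT, IRF1KO, IRF2KO and DKO), and 3 of the 4 had an unadjusted p under 0.05.

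**Figure D2:**
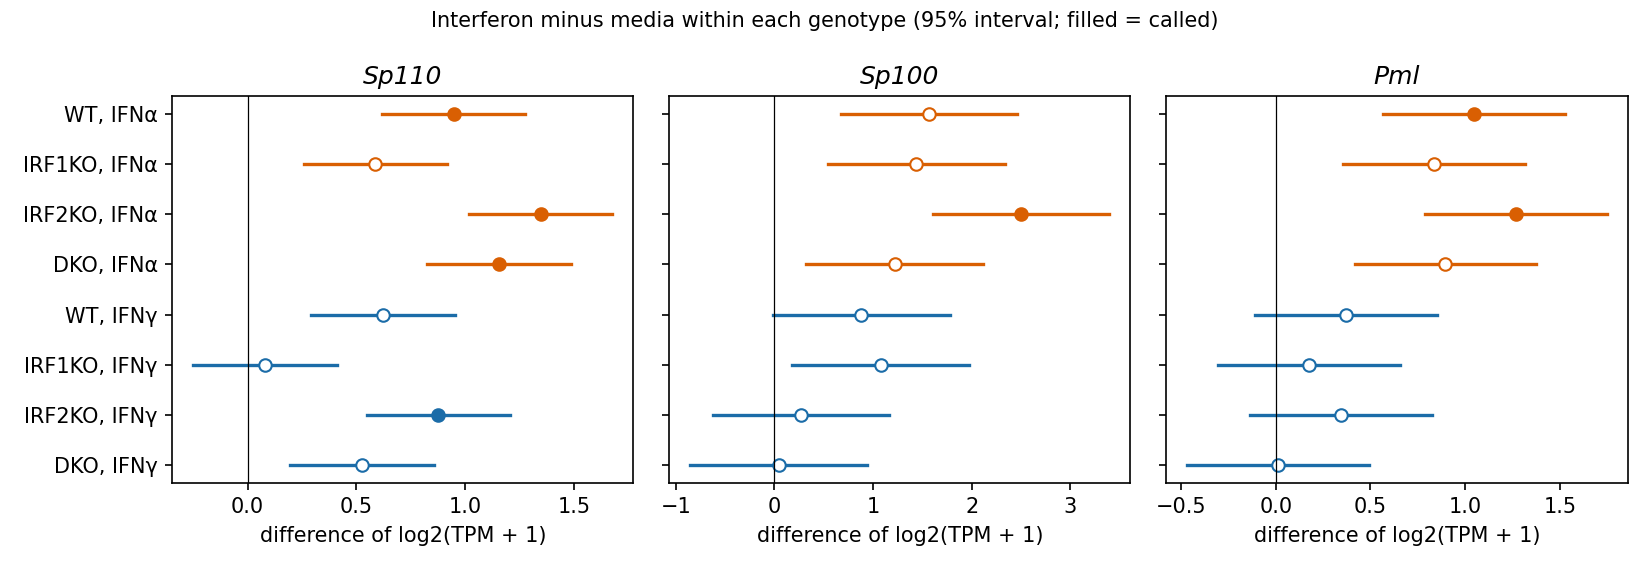
Difference of mean log2(TPM + 1) between interferon and media within each genotype (horizontal axes, one panel per gene), for IFNα in orange and IFNγ in blue; lines are 95% intervals from limma and filled points are called. For IFNα all 12 points lie above 0, from 0.59 (Sp110 in IRF1KO) to 2.50 (Sp100 in IRF2KO), and 6 of them are filled.

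Between genotypes, 11 of the 15 comparisons of Sp110 were called, and all 15 differences were negative. In media, IRF2KO was lower than WT by -0.91 ± 0.16 (ratio 0.498, adjusted p = 0.00673) and DKO by -2.34 ± 0.16 (ratio 0.137, adjusted p = 2.19e-07). DKO was also lower than IRF1KO (-1.97, adjusted p = 1.43e-06) and than IRF2KO (-1.43, adjusted p = 0.000323). IRF1KO minus WT was -0.37 (95% interval -0.70 to -0.04) and was not called. For these 5 comparisons in media, the shares called among all genes were 0.836% for IRF2KO against WT, 0.76% for DKO against WT, 0.667% for DKO against IRF1KO, 0.118% for DKO against IRF2KO and 0% for IRF1KO against WT, where limma called 0 genes while 305 had an unadjusted p under 0.05. The call of IRF2KO against WT stood in 1 of 4 fits that left out a library, and was lost without IRF2KO media replicate 2 (-0.81, adjusted p = 0.102), WT media replicate 1 (-0.86, adjusted p = 0.112) and WT media replicate 2 (-0.96, adjusted p = 0.0581). The 3 DKO calls stood in all 4 such fits each. All genes together were shifted by 0.13 (median log2) between DKO and IRF2KO in media, in the direction opposite to Sp110.

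With IFNα, Sp110 was lower in DKO than in WT (-2.13, adjusted p = 4.28e-07), IRF1KO (-1.40, adjusted p = 5.44e-05) and IRF2KO (-1.62, adjusted p = 2.47e-05). The single mutants differed from WT by -0.73 (IRF1KO, adjusted p = 0.126) and -0.51 (IRF2KO, adjusted p = 0.221), with no overlap of libraries. The shares called among all genes with IFNα were 0.177% for IRF1KO and 0.971% for IRF2KO against WT, and for DKO 1.05% against WT, 0.844% against IRF1KO and 0.38% against IRF2KO. With IFNγ, IRF1KO was lower than WT by -0.91 ± 0.16 (ratio 0.509, adjusted p = 0.0136), a call that was lost in each of the 4 fits without 1 library (adjusted p from 0.0893 to 0.208). IRF2KO minus WT was -0.66 (adjusted p = 0.0682, and 0.0344 with the replicate block). DKO was lower than WT (-2.44, adjusted p = 9.07e-08), IRF1KO (-1.53, adjusted p = 3.23e-05) and IRF2KO (-1.78, adjusted p = 7.28e-06). The shares called with IFNγ were 0.236% for IRF1KO and 0.802% for IRF2KO against WT, and for DKO 1.31% against WT, 0.819% against IRF1KO and 0.481% against IRF2KO. The DKO differences of Sp110 were thus called in all 3 treatments, against WT and against each single mutant.

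The loss of both factors was set against the sum of the single losses for Sp110, on log2(TPM + 1). A sum on this scale stands roughly for a product of ratios, and nothing was tested on TPM itself. The contrast was DKO minus IRF1KO minus IRF2KO plus WT. The value was -1.06 ± 0.22 in media (95% interval -1.53 to -0.59), -0.89 with IFNα (-1.36 to -0.43) and -0.87 with IFNγ (-1.34 to -0.40). All 3 had an unadjusted p under 0.05, and none was called after adjustment over all genes (adjusted p = 0.449, 0.845 and 1, and 0.23, 0.579 and 0.682 with the replicate block). The median of this contrast over all genes was 0.11 in media. It called 0.0169% of all genes in media, 0.0169% with IFNα and 0.0422% with IFNγ. The interferon responses of Sp110 in the mutants differed from those in WT by -0.54 (IFNγ in IRF1KO) to 0.40 (IFNα in IRF2KO). None of these 6 differences was called by limma, and 1 had an unadjusted p under 0.05, that of IFNγ in IRF1KO (95% interval -1.01 to -0.08). The IFNα response of all genes together differed by a median of 0.14 between IRF2KO and WT. The shares of all genes called for such differences were 0.0253% and 0.0844% in IRF1KO, 0.0676% and 0.0338% in IRF2KO, and 0.0844% and 0.0929% in DKO, for IFNα and IFNγ respectively.

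**Figure D3:**
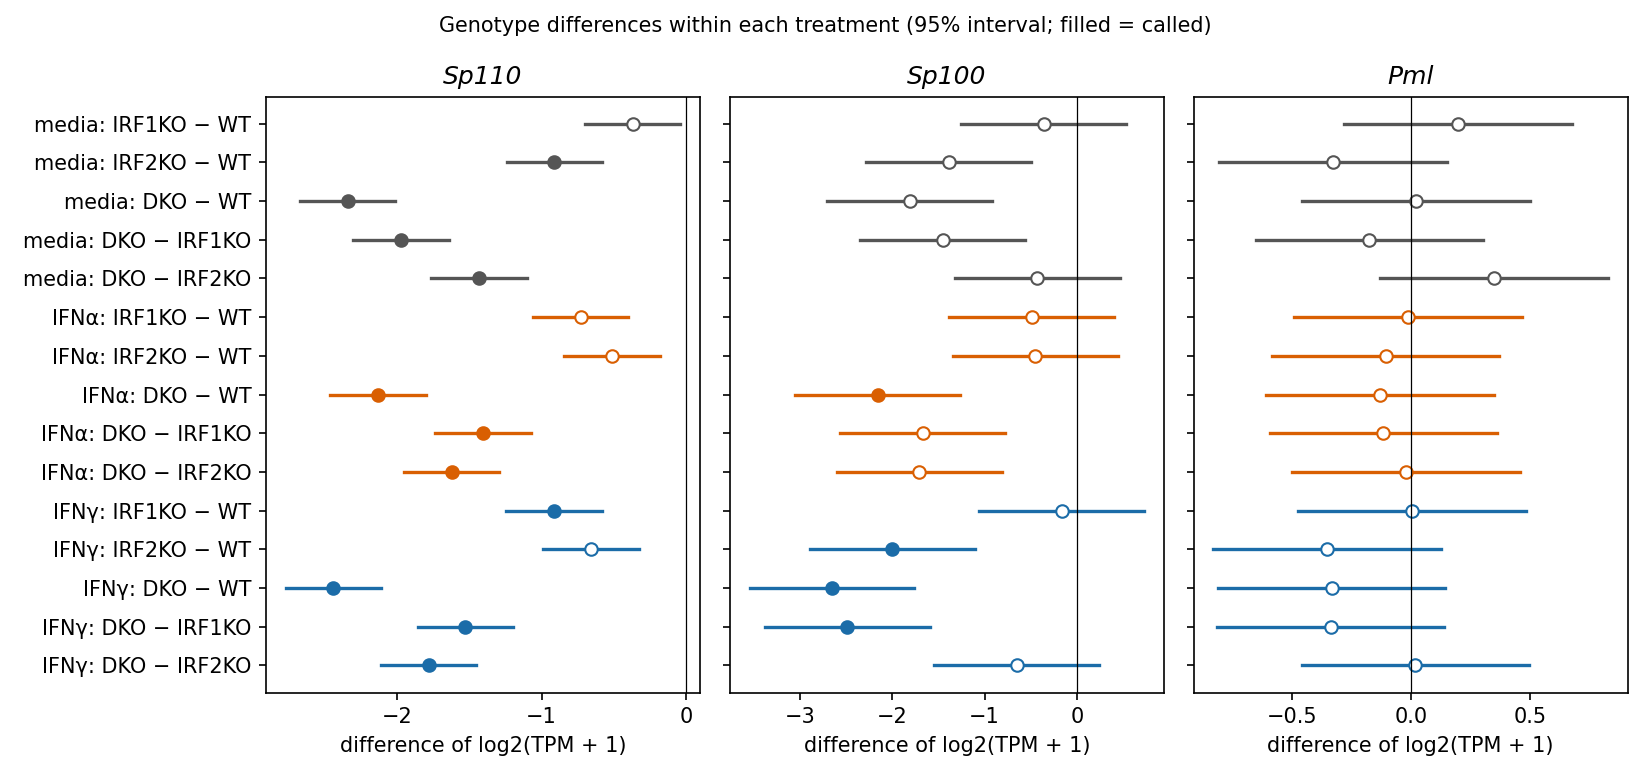
Differences of mean log2(TPM + 1) between genotypes within media (grey), IFNα (orange) and IFNγ (blue), on horizontal axes that differ between the 3 panels; lines are 95% intervals from limma and filled points are called. Filled points number 11 of 15 for Sp110, 4 of 15 for Sp100 and 0 of 15 for Pml, and all 15 Pml intervals cross 0. Each comparison called from 0% to 1.31% of all genes.

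Sp100 had the lowest TPM of the 3 genes in each group, and in media and with IFNγ it stood lowest in the libraries labelled IRF2KO and DKO. In media it was listed at 3.01 and 3.4 TPM in WT, 1.73 and 2.92 TPM in IRF1KO, 0.57 and 0.64 TPM in IRF2KO, and 0.08 and 0.32 TPM in DKO. The IRF2KO and DKO libraries lay below all WT and IRF1KO libraries. With IFNα it reached 11.5 and 11.35 TPM in WT, 7.59 and 8.14 TPM in IRF1KO, 9.91 and 6.57 TPM in IRF2KO, and 0.83 and 3.22 TPM in DKO. With IFNα, IRF2KO thus overlapped IRF1KO and lay below WT, and DKO lay below all of them. With IFNγ it was at 6.9 and 6.59 TPM in WT, 3.05 and 10.77 TPM in IRF1KO, 1.32 and 0.61 TPM in IRF2KO, and 0 and 0.51 TPM in DKO. The IRF1KO libraries with IFNγ differed widely from each other, and 1 of the DKO libraries was listed at 0. Neighbours overlapped in 7 of the 11 steps down the order of group means.

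The rise of Sp100 with IFNα was called in IRF2KO, at 2.50 ± 0.42 (ratio 13.6, adjusted p = 0.00258), and the call was lost without IRF2KO IFNα replicate 1 (2.24, adjusted p = 0.069). The differences in WT (1.56, 95% interval 0.67 to 2.46, adjusted p = 0.151), IRF1KO (1.44, adjusted p = 0.275) and DKO (1.22, adjusted p = 0.473) were not called, although the IFNα libraries lay above both media libraries in each. The DKO value was 1.82 without DKO IFNα replicate 1 and 0.62 without DKO IFNα replicate 2. With IFNγ no genotype was called: the values were 0.88 in WT, 1.08 in IRF1KO, 0.27 in IRF2KO and 0.04 in DKO, with overlapping libraries in the last 2. The IRF1KO value was 1.85 without IRF1KO IFNγ replicate 1 and 0.31 without IRF1KO IFNγ replicate 2. IRF2KO had the single called difference between the interferons, with IFNγ below IFNα by -2.23 ± 0.42 (adjusted p = 0.0122). It was lost without IRF2KO IFNα replicate 1 (-1.97, adjusted p = 0.211), without IRF2KO IFNγ replicate 2 (-1.97, adjusted p = 0.207) and with a pseudocount of 0.1 (adjusted p = 0.117). The corresponding values were -0.68 in WT, -0.36 in IRF1KO and -1.18 in DKO (-1.78 without DKO IFNα replicate 1 and -0.57 without DKO IFNα replicate 2). Whether the response to either interferon differed between a mutant and WT was tested for Sp100 as well: the 6 differences ran from -0.84 to 0.94, 0 were called by limma and 0 had an unadjusted p under 0.05. The standard error of each was 0.60, so that the interval for IFNα in IRF2KO ran from -0.33 to 2.203.

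Between genotypes, 4 of 15 comparisons of Sp100 were called, and all 15 differences were negative. Each of these comparisons called from 0% (IRF1KO against WT in media) to 1.31% (DKO against WT with IFNγ) of all genes. With IFNγ, Sp100 was lower in IRF2KO than in WT by -2.002 ± 0.42 (adjusted p = 0.035), a call that was lost in each of 4 fits without 1 library (adjusted p from 0.1 to 0.307), with pseudocounts of 0.1 and 5 (adjusted p = 0.15 and 0.0568) and without the filter (adjusted p = 0.064). DKO was lower than WT by -2.66 (adjusted p = 0.00209), which was called in all 4 such fits. DKO was lower than IRF1KO by -2.49 (adjusted p = 0.00565), and this call was lost without DKO IFNγ replicate 1 (-2.19, adjusted p = 0.0715) and without IRF1KO IFNγ replicate 2 (-1.72, adjusted p = 0.101). With IFNα, DKO was lower than WT by -2.16 (adjusted p = 0.0146). It was called in 1 of 4 fits that left out a library, and lost with a pseudocount of 0.1 (adjusted p = 0.152), without DKO IFNα replicate 1 (-1.56, adjusted p = 0.34), WT IFNα replicate 1 (adjusted p = 0.111) and WT IFNα replicate 2 (adjusted p = 0.106).

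The other Sp100 differences between genotypes were not called, and they were smaller on log2(TPM + 1). By ratio of mean TPM this order did not hold. DKO against WT was at 0.0624 in media, not called, and at 0.177 with IFNα, called. With IFNα, DKO minus IRF1KO was -1.67 (adjusted p = 0.106, and 0.0411 with the replicate block) and DKO minus IRF2KO -1.71 (adjusted p = 0.181). Without DKO IFNα replicate 2 both were called, at -2.28 (adjusted p = 0.0309) and -2.31 (adjusted p = 0.0483), and without DKO IFNα replicate 1 they were -1.07 and -1.11. In media, DKO minus WT was -1.81 (95% interval -2.71 to -0.92, adjusted p = 0.0669, and 0.0271 with the replicate block), a ratio of mean TPM of 0.0624. IRF2KO minus WT in media was -1.39 (ratio 0.189, adjusted p = 0.276). IRF1KO against WT gave -0.36 in media, -0.49 with IFNα and -0.17 with IFNγ, all with intervals that include 0. The contrast of DKO with the sum of the single mutants was -0.07 in media, -1.22 with IFNα (95% interval -2.49 to 0.04) and -0.49 with IFNγ; 0 of these 3 were called by limma and 0 had an unadjusted p under 0.05.

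Pml stood higher with IFNα than in media in every genotype, at IFNα levels that overlapped between genotypes, and no genotype difference was called. In media it stood at 8.35 and 9.45 TPM in WT, 9.89 and 10.78 TPM in IRF1KO, 5.23 and 8.96 TPM in IRF2KO, and 8.18 and 9.96 TPM in DKO. With IFNα it was at 18.08 and 20.83 TPM in WT, 18.06 and 20.46 TPM in IRF1KO, 16.29 and 19.76 TPM in IRF2KO, and 15.11 and 20.61 TPM in DKO. All 8 IFNα libraries lay above all 16 others, and within IFNα the genotypes overlapped. With IFNγ it was at 10.24 and 13.5 TPM in WT, 11.46 and 12.15 TPM in IRF1KO, 8.63 and 9.37 TPM in IRF2KO, and 7.37 and 11.24 TPM in DKO. The IFNγ libraries overlapped the media libraries in IRF2KO and DKO and lay just above them in WT and IRF1KO. Replicate 2, whose titles carry 1 date-like code and those of replicate 1 another, was the higher library of Pml in all 12 groups. In the order of group means, neighbours did not overlap between IFNα and the rest, nor between IRF1KO with IFNγ and IRF1KO in media.

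The rise with IFNα was called in WT, at 1.05 ± 0.23 (ratio 2.19, adjusted p = 0.03), and in IRF2KO, at 1.27 ± 0.23 (ratio 2.54, adjusted p = 0.00438). In IRF1KO it was 0.84 (ratio 1.86, adjusted p = 0.181) and in DKO 0.90 (ratio 1.97, adjusted p = 0.101), and with the replicate block both were called (adjusted p = 0.00355 and 0.00153). The WT call was lost in each of 4 fits without 1 library (adjusted p from 0.11 to 0.321). The IRF2KO call was lost without IRF2KO IFNα replicate 2 (1.13, adjusted p = 0.0708) and without IRF2KO media replicate 1 (0.93, adjusted p = 0.133). For IFNγ the differences from media were 0.37 in WT, 0.18 in IRF1KO, 0.34 in IRF2KO and 0.01 in DKO, none called. IFNγ minus IFNα was -0.68 in WT, -0.66 in IRF1KO, -0.92 in IRF2KO and -0.88 in DKO. None of these 4 was called (adjusted p from 0.0947 to 0.472) although each had an unadjusted p under 0.05. The fit with the replicate block called all 4 (adjusted p = 0.0206, 0.0223, 0.00166 and 0.00205).

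None of the 15 genotype comparisons of Pml was called by limma, and 0 had an unadjusted p under 0.05. Among all genes, 0% to 1.31% were called in each of these comparisons, so a count of 0 does not set Pml apart. The Pml differences ran from -0.35 (IRF2KO minus WT with IFNγ) to 0.35 (DKO minus IRF2KO in media). The libraries did not overlap for IRF1KO against WT in media, nor with IFNγ for IRF2KO against WT and DKO against IRF1KO. The lowest bound of the 15 intervals was -0.83 and the highest 0.83, and the failure to pass the test does not show that the genotypes were alike. With IFNα, DKO minus WT was -0.13 (95% interval -0.61 to 0.35), against -2.13 for Sp110 and -2.16 for Sp100 in the same libraries. The 6 differences of response between a mutant and WT ran from -0.36 to 0.22 and the 3 contrasts of DKO with the sum of the single mutants from -0.01 to 0.15, with 0 called and 0 at an unadjusted p under 0.05 in either family.

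Of the 23 calls of the 3 genes described so far, limma fits limited to the compared groups, with 2 residual degrees of freedom, kept 2: DKO minus WT in media for Sp110 and IFNα minus media in IRF2KO for Sp100. The replicate block lost none of the 23 and called 33.

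Across the 12 group means of log2(TPM + 1), Sp110 and Sp100 had a Pearson r of 0.87, Sp100 and Pml of 0.75, and Sp110 and Pml of 0.49. These are descriptions over groups that share libraries, treatments and normalisation. The genes with the profile most like that of Sp110 over the 12 groups were Psme2 (r = 0.97) and Psme1 (0.97), which encode the proteasome activator PA28, the receptor chain Il15ra (0.95), the lysosomal protease gene Ctss (0.93) and Wfdc17 (0.92). For Sp100 they were Parp12 (0.96), Parp14 (0.92), Trim34a (0.92), the RNA receptor gene Tlr3 (0.92) and Mov10 (0.91). For Pml they were Mb21d1 (0.98), which encodes the DNA sensor cGAS, Dck (0.98), Slfn3 (0.97), Oas1a (0.97) and Irf7 (0.96).

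Of 22 other genes of PML body structure and cargo, 21 were tested and 3 were called in any of the 36 comparisons, Daxx, Sp140 and Isg20, beside 505 of all 11842 genes (4.26%). The list's median difference for IFNα in WT was -0.09, beside -0.06 over all genes, with 2 genes higher and 0 lower. Daxx encodes a histone chaperone of PML bodies. It stood at 25.96 and 24.56 TPM in WT media and at 68.99 and 58.42 TPM in WT with IFNα, and rose with IFNα in WT (1.30 ± 0.14, adjusted p = 3.33e-05), IRF1KO (1.09), IRF2KO (1.45) and DKO (1.02), all called by limma. No genotype comparison of Daxx was called. Its IFNγ libraries lay between 27.79 and 37.88 TPM over the genotypes, and no IFNγ difference from media was called. Isg20, an interferon-induced exonuclease, was called for IFNα in IRF1KO (1.49), IRF2KO (1.65) and DKO (2.30) and not in WT (0.85, adjusted p = 0.458), whose libraries were at 0.86 and 2.42 TPM in media and 5.04 and 2.43 TPM with IFNα. The mutant libraries of Isg20 in media lay between 0.13 and 0.73 TPM. Its IFNα responses differed from that in WT by 0.64 (IRF1KO), 0.80 (IRF2KO) and 1.45 (DKO). None of these differences was called by limma, and that of DKO had an unadjusted p under 0.05. With IFNγ, Isg20 was lower in DKO than in WT by -1.44 (adjusted p = 0.0159). Of the 19 genes of SUMO conjugation and removal, 19 were tested and 0 were called by limma in any of the 36 comparisons (lowest adjusted p = 0.457), with 5 of 684 tests at an unadjusted p under 0.05 and 0 called with the replicate block. With 4.26% of all genes called in any comparison, a count of 0 in 19 genes does not set the list apart.

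Sp140, the chromatin reader gene that lies between Sp110 and Sp100, did not share their low level in IRF2KO media. Its libraries stood at 7.16 and 7.8 TPM in WT media, 7.84 and 7.99 TPM in IRF1KO, 7.24 and 6.57 TPM in IRF2KO, and 5.86 and 5.34 TPM in DKO. IRF2KO and WT overlapped, with a difference of -0.10 (95% interval from limma -0.39 to 0.19), beside -0.91 for Sp110 and -1.39 for Sp100 in the same libraries. The difference between these genes was not tested. Sp140 rose with IFNα in WT (1.06, adjusted p = 0.000173), IRF2KO (1.29, adjusted p = 1.58e-05) and DKO (0.78, adjusted p = 0.00461), and with IFNγ in WT (0.87, adjusted p = 0.00157) and IRF2KO (1.22, adjusted p = 4.54e-05). In IRF1KO the differences were 0.20 and 0.12 and were not called. With IFNα it was lower in IRF1KO than in WT by -0.78 (adjusted p = 0.0215) and in DKO by -0.64 (adjusted p = 0.0288). With IFNγ it was lower in DKO than in WT by -1.05 (adjusted p = 0.000227). IRF1KO minus WT with IFNγ was -0.68 (limma adjusted p = 0.0554, and 0.0168 with the replicate block). Sp140 was also lower in DKO than in IRF2KO, by -0.765 with IFNα (limma adjusted p = 0.0141) and -1.30 with IFNγ (adjusted p = 4.44e-05). Of the 14 listed genes of the cluster and its near copies, 8 had no entry under their symbols in the expression table. Of the rest, 4 failed the filter on low values and 2 passed it, Sp140 and A630001G21Rik.

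**Figure D4:**
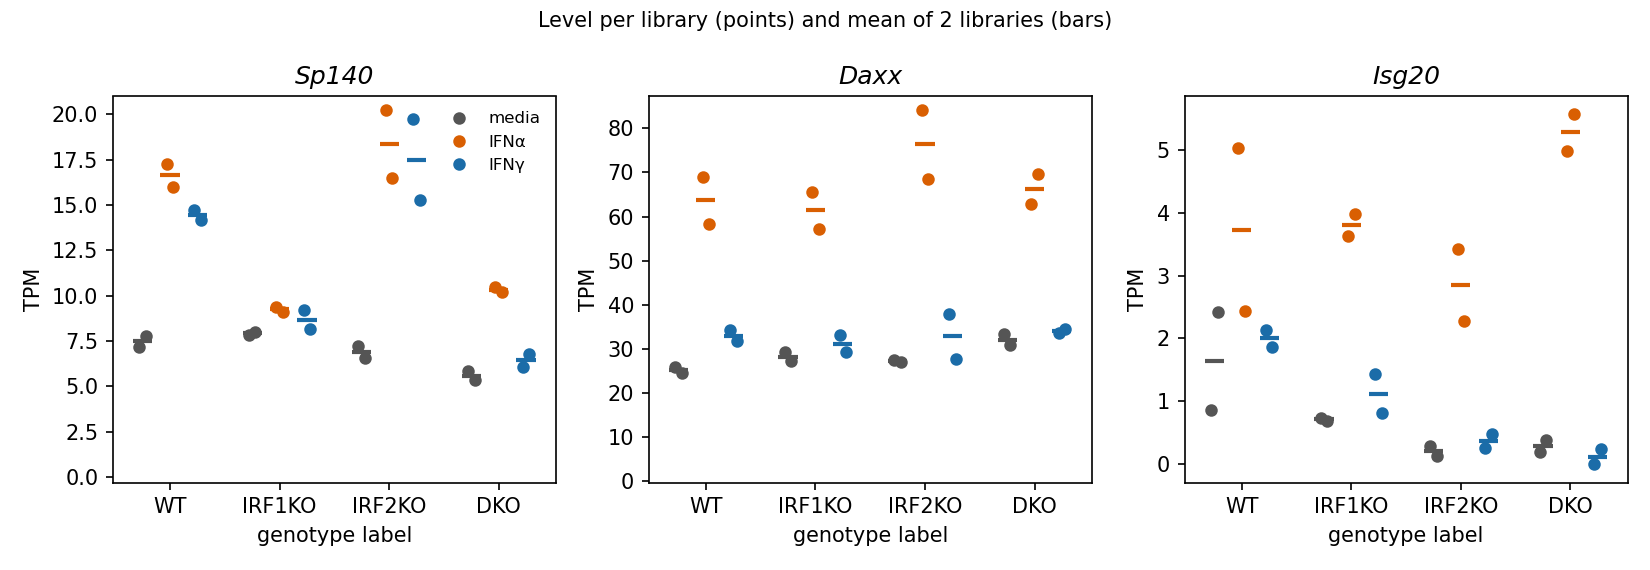
TPM of Sp140, Daxx and Isg20 (vertical axes, linear and separate for each gene) in each of the 24 replicated libraries, by genotype, with media in grey, IFNα in orange and IFNγ in blue; points are libraries and bars the means of 2. Sp140 in IRF2KO media (7.24 and 6.57 TPM) lay beside WT media (7.16 and 7.8 TPM), and the 8 IFNα libraries of Daxx (57.29 to 84.23 TPM) lay above all 16 others (at most 37.88 TPM).

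The sequence of these genes is shared in part with near copies. Of the distinct 50-base stretches of the Sp110 transcript, 43.91% also occur in transcripts of other annotated genes, among them Gm15753 and Gm16026, against 10.2% for Sp100, 54.56% for Sp140 and 0% for Pml. Gm15753 and Gm16026 have no entry under these symbols in the expression table. Whether reads from their shared stretches were counted for Sp110 was not tested. C130026I21Rik, another gene that shares stretches with Sp110, reached at most 0.9 TPM. Of the genes that share stretches with Sp100, Gm7582, Gm2619, Gm7592 and Gm4117 have no such entry, and Gm7609 reached at most 1.78 TPM. Sp100 itself did not exceed 1.32 TPM in IRF2KO and DKO in media or with IFNγ. Whether reads from shared stretches were counted for Sp100 was not tested either. The 3′ end of Sp110 also overlaps G530012D18Rik on the other strand by 397 bases, and an antisense gene, Gm17017, overlaps the start of Sp100. From its other RefSeq start (base 85603891), Sp110 also overlaps Sp140, which lies on the other strand. The use of strand in counting is not given in the sources used here, so the levels of Sp110, Sp100 and Sp140 are uncertain to that extent.

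In the single libraries, quantified against another transcript set and with no replicate, the 3 genes again stood higher with IFNα than at 0 h. Sp110 was at 11.05 TPM at 0 h, 27.09 TPM with IFNα and 10.63 TPM with LPS in WT, and at 8.35, 33.87 and 11.25 TPM in IRF2KO. Sp100 was at 1.3 TPM at 0 h, 8.74 TPM with IFNα and 0.76 TPM with LPS in WT, and at 0.33, 9.73 and 0.35 TPM in IRF2KO. In log2(TPM + 1), IRF2KO was lower than WT at 0 h, by -0.37 for Sp110 and -0.79 for Sp100 (-1.70 with a pseudocount of 0.1 and -0.24 with 5). With IFNα it was higher, by 0.31 and 0.14, whereas these differences were negative in the replicated set (-0.51 and -0.45). With LPS, IRF2KO minus WT was 0.07 for Sp110 and -0.38 for Sp100 (-0.93 with a pseudocount of 0.1 and -0.11 with 5). Pml was at 8.27 TPM at 0 h, 20.43 TPM with IFNα and 4.54 TPM with LPS in WT, and at 6.19, 20.64 and 3.12 TPM in IRF2KO, a difference of -0.37 between the genotypes at 0 h and of 0.01 with IFNα. With LPS, a bacterial ligand of TLR4, Pml was lower than at 0 h in both genotypes, by -0.74 in WT and -0.80 in IRF2KO (-0.48 and -0.46 with a pseudocount of 5), beside medians of -0.05 and -0.15 over 10410 genes. Sp110 with LPS differed from 0 h by -0.05 in WT and 0.39 in IRF2KO, and Sp100 by -0.39 and 0.02. There is 1 library a group, and no test was run on these differences.

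**Figure D5:**
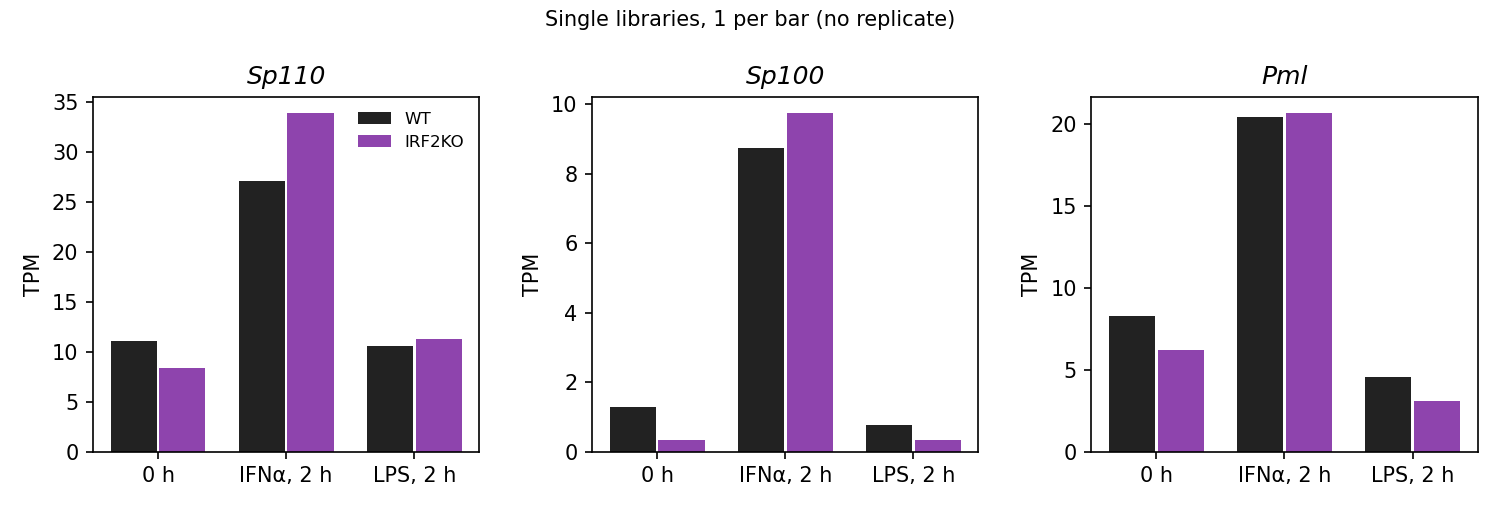
TPM of Sp110, Sp100 and Pml (vertical axes starting at 0, separate for each gene) in the 6 single libraries, untreated at 0 h and at 2 h of IFNα or LPS, for WT in black and IRF2KO in purple; each bar is 1 library, so there is no error bar. The IFNα bar is the highest for each gene in both genotypes, and the LPS bar of Pml (4.54 and 3.12 TPM) is the lowest.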

How the data were processed

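The authors deposited TPM values for 30 libraries, used as given. Per the submitters' processing notes, bcl2fastq 2.20, Bowtie 0.12.2 and RSEM were used, with the builds mm10 and GRCm38, whose roles are not given in the sources used here. TPM keeps no read totals, so the depth of a library is unknown and no count model was used. The table has 41346 entries for 31427 symbols. A different transcript set underlies the values of the single libraries. Each of Sp110, Sp100 and Pml has 2 entries, 1 per set, summed by symbol within a set, and no level was set against one from the other set.

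limma 3.58.1 (R 4.3.3) was fitted to log2(TPM + 1) of the 11842 genes that reached 1 TPM in 2 or more of 24 replicated libraries, with a mean for each of 12 groups, a trended prior variance and 12 residual degrees of freedom (11 with a replicate block). The 3 members passed this filter. Tests are two-sided, with Benjamini-Hochberg adjustment over all genes within each of 36 comparisons. The fit was tested on simulated data for DKO minus WT in media. That simulation held no shift shared by libraries of a replicate number, and its changes were placed only in genes at higher levels. It therefore does not bear on the pairing or on genes at low level. The labels do not state whether the 2 replicates of a group came from separate cultures, so p-values measure only the spread between these samples, which may be technical. In the titles a replicate number goes with a single date-like code. Numbers were therefore treated as pairs in the fit with the replicate block. The main fit, which gave all values not marked as from the block, did not use the pairing. Same-numbered libraries deviated from their group means together, with a correlation over 0.1 for 56 of the 66 group pairs (median 0.233). A code has 1 library of every group, and no test was run within a code. The block is given beside a result where it changes a call.

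The members, gene lists and comparisons were chosen with earlier results of these data known. Named genes are the 3 members in every group, Irf1 and Irf2 in media, up to 4 genes per pathway list called in an interferon response or against WT, by smallest adjusted p, and the 5 genes most correlated with each member over the 12 groups. The fit was repeated with a pseudocount of 0.1 or 5, without the filter or with a mean of 5 TPM as the minimum, after median-ratio or quantile scaling, with robust variances, with the replicate block, on the compared groups alone, and without each library. Adgre1 was matched under its older symbol Emr1. Sequences came from RefSeq (GRCm38.p6) and were searched with Python 3.11.15 and Biopython 1.88.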

Additional observations from a re-analysis of the deposited data

How the results depend on the processing

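Of 1321 values recomputed under another setting, 1211 kept their direction and their side of the threshold (or moved by less than 1.5 times). Of the others, 55 lost the threshold, 26 gained it, 16 turned in sign and 13 moved. Some results entered only as counts of calls, so their signs were not followed. These were the genotype comparisons of Pml under interferon, and for Sp100 and Pml the response differences and the contrasts of DKO with the single mutants. With the replicate block, which called no fewer of the members' comparisons, IFNγ minus media in WT was called for Sp110 (0.62), DKO minus WT in media for Sp100 (-1.81) and IFNγ minus IFNα in WT for Pml (-0.68). Over the 36 comparisons it moved the number of genes called by over 1.5 times, upwards in 21 and downwards in 1. It raised the number of genes called for IFNγ minus IFNα in WT from 91 to 177, and in media from 99 to 213 (IRF2KO minus WT), 90 to 190 (DKO minus WT), 79 to 201 (DKO minus IRF1KO) and 14 to 23 (DKO minus IRF2KO). A pseudocount of 0.1 called DKO minus WT in media for Sp100 (-3.58), and a pseudocount of 5 called IFNγ minus media for Sp110 (0.51) and IFNα minus media for Sp100 (1.002) in WT. Without the filter IFNα minus media in WT for Pml was not called (1.05). In the fits of the compared groups alone, which have 2 residual degrees of freedom, the calls of IFNα minus media in WT for Sp110 (0.95) and Pml (1.05), and in media of IRF2KO minus WT (-0.91), DKO minus IRF1KO (-1.97) and DKO minus IRF2KO (-1.43) for Sp110 were lost. Sp100, with a mean under 5 TPM, gave no value under that filter.

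Values that turned in sign were not called under either setting. DKO minus WT in media for Pml was -0.035 with median-ratio and -0.071 with quantile scaling. The IFNγ difference of Sp100 in DKO was -0.15 with a pseudocount of 0.1 and -0.02 with quantile scaling, and the response differences of Sp110 between DKO and WT were 0.063 for IFNγ (pseudocount 0.1) and -0.19 for IFNα (pseudocount 5). The cause of these changes was not tested. Leaving out 1 library gave ranges of 0.895 to 0.996 (Sp110, IFNα in WT), 0.95 to 1.14 (Pml, IFNα in WT), -1.01 to -0.81 (Sp110, IRF2KO minus WT in media), -0.67 to 0.011 (Pml, IRF2KO minus WT in media) and -0.11 to 0.15 (Pml, DKO minus WT in media). Ranges were taken only for results that did not enter as counts of calls. Among these, the others that crossed 0 included IFNγ in DKO for Sp100 (-0.26 to 0.34) and Pml (-0.26 to 0.29). The rest were IFNγ in IRF1KO for Sp110 (-0.071 to 0.23), IFNγ minus IFNα in IRF1KO for Sp100 (-1.13 to 0.41) and IRF1KO minus WT with IFNγ for Sp100 (-0.94 to 0.60). With 1 library left in a group, it was assumed to vary like the other groups. TPM holds no depth, so the precision of low values such as those of Sp100 in DKO is not known.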
